A study of Mus musculus with 8 samples.

Results

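Among the CD45+ leukocytes sorted from arthritic mouse paws, 62 of 10256 cells formed a small population of mononuclear cells with abundant major histocompatibility complex (MHC) class II transcripts. The cells were selected on these transcripts and not by clustering. A cell was taken when it held at least 15 unique molecular identifiers (UMIs, counted transcript molecules) of H2-Aa, H2-Ab1 and H2-Eb1 together and at least 5 of Cst3, the gene of the protease inhibitor cystatin C. B-cells (more than 2 UMIs of Cd79a, Cd79b and Ms4a1), C1q macrophages (5 or more UMIs of C1qa, C1qb and C1qc), plasmacytoid dendritic cells (more than 1 Siglech UMI) and cells with S100a8 and S100a9 at 5% of UMIs or more, the neutrophils, were left out. The levels of these genes are therefore given as a description and are not tested.

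MHC class II molecules present peptides from engulfed proteins to CD4+ T-cells. Conventional dendritic cells (cDC) carry them at high density and fall into type 1 cells (cDC1), which depend on the transcription factor Irf8, carry the chemokine receptor Xcr1 and present antigen to CD8+ T-cells, and type 2 cells (cDC2), which carry lectins such as Cd209a and Mgl2. Dendritic cells that mature switch on Ccr7, the receptor that leads them to lymph nodes. Monocytes that enter inflamed tissue can also take up class II and cDC2 lectins, so the transcripts of a cell do not give its descent.

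The mice were 10-week-old C57BL/6 animals with arthritis from K/BxN serum, which carries joint-inflaming antibodies, given as 100 µL on day 0 and again on days 2 and 9. At day 12 they received bone marrow monocytes of arthritic mice, kept for 90 min with vehicle (Mono, 4 mice) or with 1 nM MCTR3, a lipid mediator made from docosahexaenoic acid (Mono+MCTR3, 4 mice). CD45+ joint cells were sorted on day 22 and sequenced with the 10x Chromium 3′ system, 4000 cells loaded. The UMI tables hold no mark of the donor cells, so recipient and transferred cells cannot be told apart here. Mice are numbered by barcode suffix because the tables do not tie a suffix to a labelled mouse.

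The selecting genes lie together on mouse chromosome 17 (GRCm38), H2-Ab1 at 34257689 to 34269419, H2-Aa at 34282744 to 34287823 and H2-Eb1 at 34305867 to 34316674. The 110 bases before the start of H2-Aa and H2-Eb1 are shown because they are promoters of the transcripts that define the population (RefSeq, GRCm38.p6, no annotated exon in either stretch). Capitals mark TGATTGG, which holds an inverted CCAAT as in the Y box of class II promoters. The H2-Aa stretch is chr17:34287824-34287933 on the minus strand and the H2-Eb1 stretch is chr17:34305757-34305866 on the plus strand, both written 5′ to 3′.
H2-Aa: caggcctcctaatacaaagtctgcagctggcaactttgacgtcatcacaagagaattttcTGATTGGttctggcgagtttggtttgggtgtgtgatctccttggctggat
H2-Eb1: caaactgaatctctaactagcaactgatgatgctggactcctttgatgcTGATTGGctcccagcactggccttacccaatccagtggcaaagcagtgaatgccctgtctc
The letters start 50 bases before the gene in H2-Aa and 61 bases before it in H2-Eb1. The 250 bases before the gene start were searched for TGATTGG or its reverse complement CCAATCA. A match was found for 8 of 14 genes of class II and its presentation machinery with a sequence, and for 2265 of 27025 genes in all (8.38%). The 8 were H2-Aa, H2-Eb1, H2-DMb1, H2-DMb2, H2-Eb2, H2-Oa, H2-Ob and Rfx5. The letters were picked after the sequences had been seen, and a match is a description of the window only.

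The 62 cells held 15 to 822 class II UMIs (median 355.5), the value that chose them. Of the cells that met every other criterion, 392 held 0 to 4 class II UMIs, 7 held 5 to 9 and 2 held 10 to 14, while 43 of the 62 held 200 or more. The nearest cells outside the threshold held 10 and 13 class II UMIs, and the nearest inside held 15, 21, 23, 27 and 27. H2-Aa was seen in 62 cells, H2-Eb1 in 61 and H2-Ab1 in 59. The lowest cell, with 15 class II UMIs, held 501 UMIs of the lysozyme gene Lyz2, and the cell with 23 held 57 of Ccr7, so the lower edge is not of 1 kind.

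**Figure D1:**
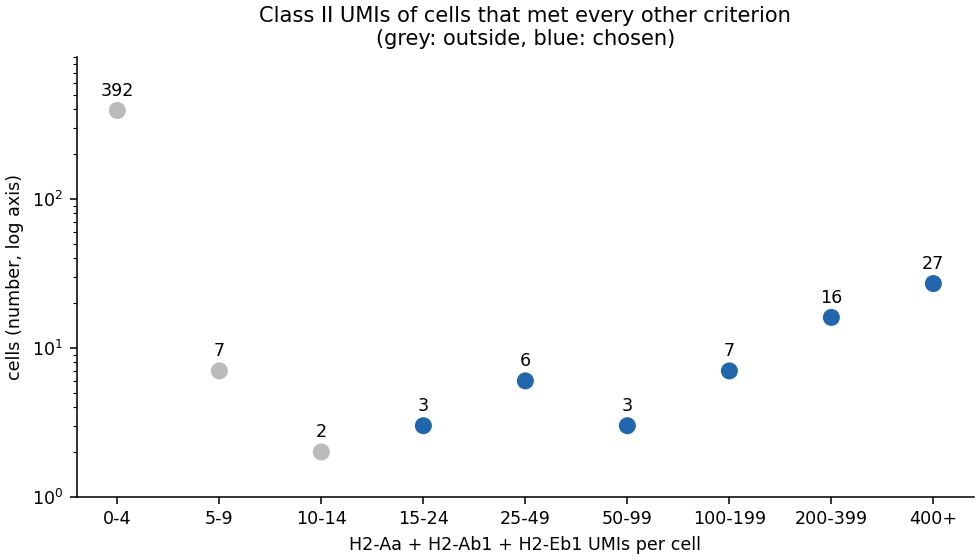
Number of cells (vertical log axis) by class II UMIs per cell (horizontal axis, H2-Aa, H2-Ab1 and H2-Eb1 summed) among cells that met every other criterion. Grey points are cells outside the threshold and blue points the 62 chosen cells, with 392 cells at 0 to 4 UMIs, 2 at 10 to 14 and 27 at 400 or more.

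The rule counts UMIs, and the cells it took were deep. They held a median of 7557.5 UMIs and 2055 genes, against 2047 UMIs and 665 genes for all kept cells, but close to the 7158 UMIs of classical monocytes. Kept cells per mouse summed to 1731045 to 6009009 UMIs. Scrublet marked 52 of 10256 cells (0.507%) as doublets and 0 of the 62. S100a8, a neutrophil transcript, was seen in 62 of 62 cells at 1573 counts per 1000000 UMIs of the population (CPM), against 2282 CPM in monocytes, and no correction for free RNA was made. The whole neutrophil list summed to 5860 CPM in the 62 cells and 5996 CPM in monocytes. T-cell genes summed to 114 CPM (8170 in T-cells), the mast cell list to 20.4 CPM and the fibroblast list to 12.2 CPM. The NK cell list summed to 1008 CPM (68.7 in monocytes), and the part of NK cells in this was not tested. The B-cell list summed to 303 CPM (38468 in B-cells), and the B-cell genes Pax5, Ighd and Fcer2a were at 0 UMIs.

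The cells were unevenly spread over the mice. Mono mice 1 to 4 held 3, 4, 8 and 25 cells, and Mono+MCTR3 mice 1 to 4 held 6, 16, 0 and 0. As shares of kept cells these were 0.260%, 0.253%, 0.679% and 1.88% in Mono and 0.449% and 0.836% in the first 2 Mono+MCTR3 mice. The 0 of 1007 and 0 of 758 cells in Mono+MCTR3 mice 3 and 4 allow shares of up to 0.298% and 0.396% at 3 cells of the total, with exact 95% intervals that reach 0.366% and 0.485% (counting error only). The groups overlapped. The 4 Mono mice averaged 0.767% ± 0.766 (SD, n = 4) and the 4 Mono+MCTR3 mice 0.321% ± 0.403 (SD, n = 4). The difference of -0.446 percentage points was smaller than the SD of the Mono mice and did not pass a two-sided exact permutation test over mice (p = 0.371, and 0.743 adjusted over the 6 tests of shares, smallest possible p 0.0286). With the neutrophils taken out of the denominator Mono averaged 1.92% ± 1.57 (SD, n = 4), against 0.767% ± 0.942 (SD, n = 4) for Mono+MCTR3, with an exact p of 0.286 (adjusted 0.743). Mono mouse 4 held 25 of the 62 cells, and without it the difference in shares of kept cells was -0.0763 percentage points. In a sorted, digested tissue a share moves with the number of all other cells as well as with the number of the cells counted.

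**Figure D2:**
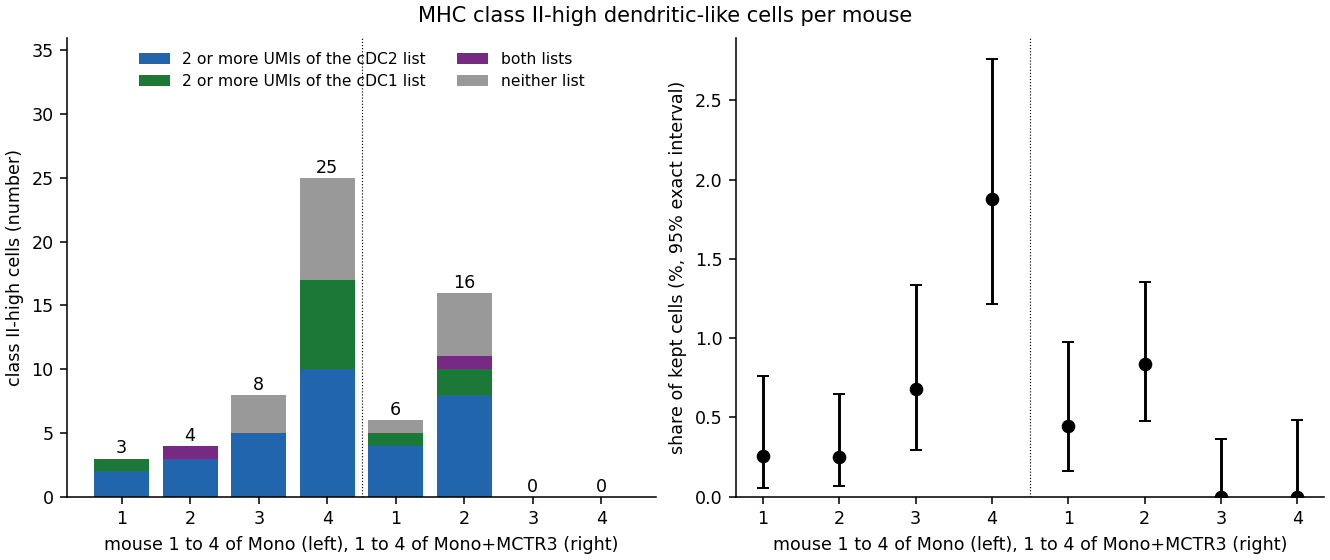
Left, number of class II-high cells per mouse (vertical axis), stacked by whether a cell held 2 or more UMIs of the cDC2 list, the cDC1 list, both or neither. Right, share of kept cells in percent with its 95% exact binomial interval, which covers counting error only. Mono mouse 4 holds 25 cells (1.88%) and Mono+MCTR3 mice 3 and 4 hold 0.

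The cells were not of 1 dendritic cell type. With at least 2 UMIs over a short marker list as the measure, 34 of 62 (54.8%) carried cDC2 transcripts (Cd209a, Mgl2, Clec10a, Cd209d, Clec4a4, Esam, Tbx21). The cDC1 list (Xcr1, Clec9a, Wdfy4, Cadm1, Tlr3, Itgae, Gcsam, Ifi205, Snx22) was met by 13 (21.0%), and only 2 cells met both lists. That left 32 cells with the cDC2 list alone, 11 with the cDC1 list alone and 17 with neither. T-cells and B-cells were taken as a background. The lists were met by 2.15% (cDC2) and 1.21% (cDC1) of 745 T-cells (median 3612 UMIs). In 1395 B-cells (median 2258 UMIs) the shares were 0% (cDC2, exact interval up to 0.264%) and 0.287% (cDC1). After every cell had been thinned to 1500 UMIs the shares were 35.5% (cDC2) and 11.3% (cDC1), against 0.274% and 0.274% of T-cells. The cDC2 list is not private to cDC2, since 76.1% of plasmacytoid dendritic cells, 15.4% of C1q macrophages and 9.82% of monocytes met it.

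The list of genes shared by all cDC summed to 2573 CPM (1428 CPM in monocytes and 1759 CPM in plasmacytoid dendritic cells), and several of its genes were low. Id2, one of its genes, held 270 UMIs, 170 of them in the 11 cDC1-list cells. Flt3, the receptor for the dendritic cell growth factor, was seen in 33 of 62 cells (163 CPM, against 23.2 CPM in monocytes and 5.94 CPM in all other kept cells). It was found in 8 of 11 cDC1-list cells, 18 of 32 cDC2-list cells and 5 of 17 cells with neither list. Batf3, a transcription factor needed by cDC1, stood at 120 CPM, Itgax, which encodes CD11c, at 77.4 CPM and Traf1, a signalling adaptor, at 352 CPM. Zbtb46, a transcription factor of the cDC lineage, was at 6 UMIs in 5 cells, which is too few to separate the sets.

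**Figure D3:**
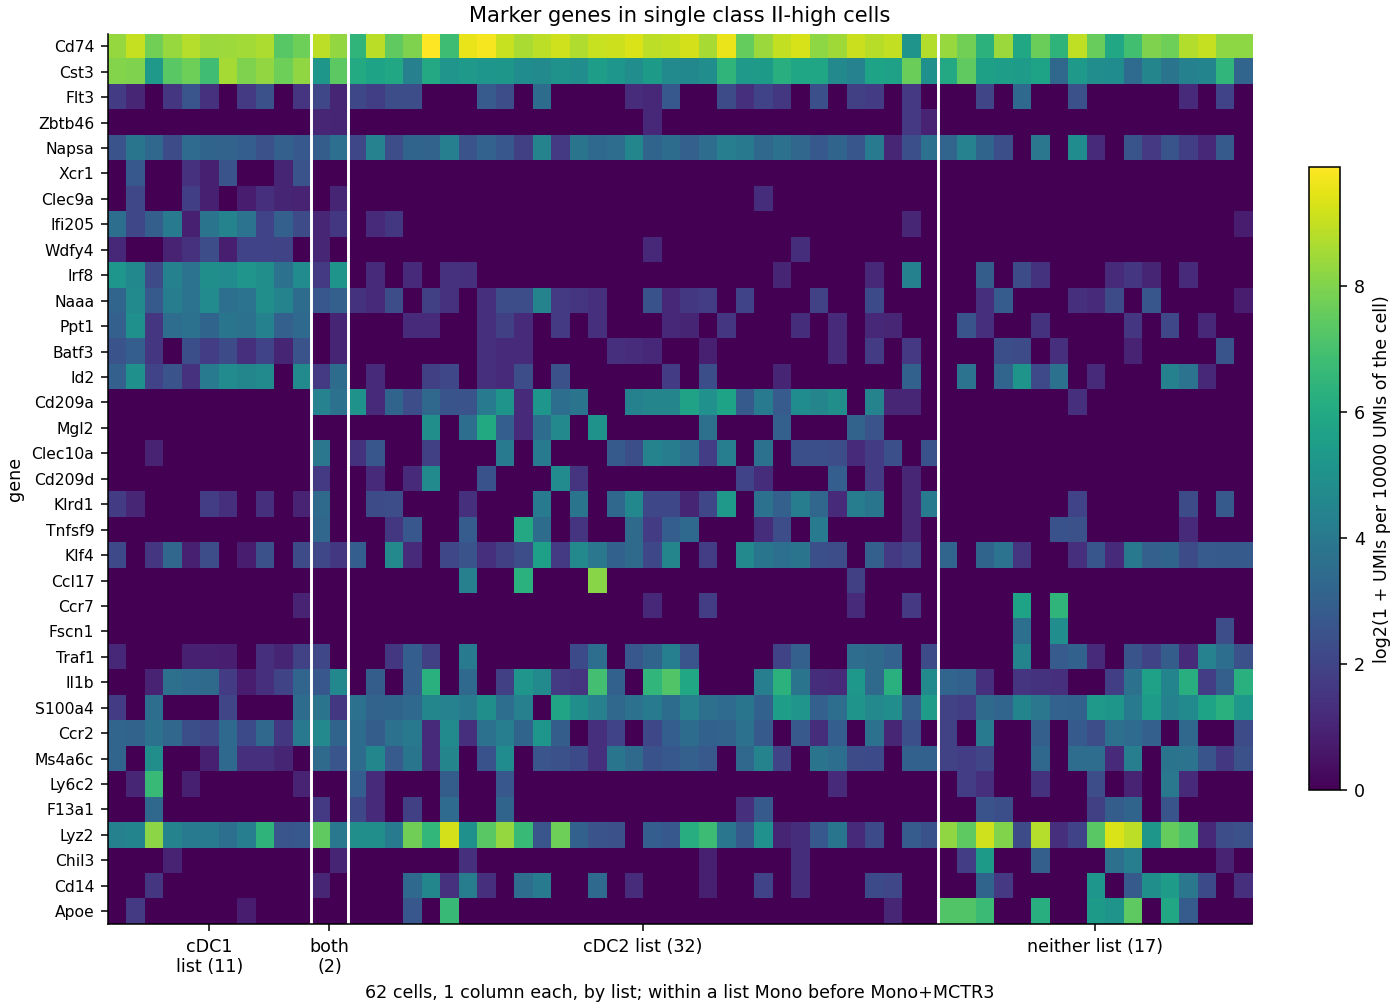
Expression of marker genes (rows) in each of the 62 class II-high cells (columns), coloured by log2(1 + UMIs per 10000 UMIs of the cell). White lines part the 11 cDC1-list cells, the 2 cells with both lists, the 32 cDC2-list cells and the 17 with neither. Irf8, Naaa and Ppt1 run through the first block, Cd209a through the third, and Apoe and Lyz2 through part of the last.

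The 11 cDC1-list cells came from Mono mouse 1 (1 cell), Mono mouse 4 (7), Mono+MCTR3 mouse 1 (1) and Mono+MCTR3 mouse 2 (2). Ifi205 was seen in all 11 (945 CPM), Clec9a, a receptor for dead cells, in 7 and Xcr1 (chromosome 9, 123852315 to 123862029) in 6, with 0 Xcr1 UMIs in the other 51 cells. Genes that the short list did not use moved with it, given here as a description. Irf8 (chromosome 8, 120736358 to 120756694) was seen in 11 of 11 at 2298 CPM, against 189 CPM in the other 51. Naaa, a lysosomal lipid amidase, stood at 1578 CPM against 173 CPM, and Ppt1, a lysosomal thioesterase, at 1153 CPM against 66.5 CPM. Id2, an inhibitor of E proteins, stood at 1474 CPM (cDC2-list cells 115 CPM). Further leading genes were Gpr141b, the chemokine receptor gene Cxcr3, Jaml, Rab7b and Cd24a. Cd209a and Mgl2 were at 0 UMIs in these cells. They also held the most Cst3, 40 to 465 UMIs per cell (median 221, against 27.5 in cDC2-list cells). Lyz2 ranged from 5 to 57 UMIs in 10 of them. The remaining cell, in Mono mouse 4, held 295 Lyz2 and 101 Ly6c2 UMIs, and 7 of its 8 list UMIs were Ifi205, so it resembled the other 10 less than its list count says.

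The 32 cDC2-list cells were found in all 6 mice that held any of the 62 cells, with 2, 3, 5 and 10 in Mono and 4 and 8 in Mono+MCTR3. Cd209a (chromosome 8, 3743397 to 3748984), which encodes a mouse relative of DC-SIGN, was seen in 28 of the 32 at 1517 CPM. Over all class II-high cells of a mouse it stood at 912, 1098, 883 and 773 CPM in Mono mice 1 to 4 and at 1049 and 605 CPM in Mono+MCTR3 mice 1 and 2, so the groups overlapped. The lectin Clec10a was seen in 20 of the 32 (487 CPM) and its close relative Mgl2 (chromosome 11, 70130329 to 70137550) in 12 (598 CPM). Mgl2 stood at 0, 755, 1136 and 228 CPM in Mono and at 156 and 70.4 CPM in Mono+MCTR3, and 1 cell of Mono mouse 3 held 41 of its 140 UMIs. Clec4a4 and Tbx21, markers of splenic cDC2 subsets, were at 0 UMIs, Esam was at 1 UMI, and Irf4, a transcription factor of cDC2, was at 12 UMIs in 9 cells. Among genes outside the list, Tnip3 (329 CPM against 42.8 in the other cells), Ccl3 (650 against 136), Slamf9 (192 against 42.8), Sirpa (197 against 73.8) and the decoy receptor gene Il1r2 (338 against 128) led these cells.

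Klrd1, which encodes CD94 and is best known from natural killer (NK) cells, was seen in 31 of 62 cells at 358 CPM, 21 of them cDC2-list cells (624 CPM). It stood at 228, 377, 21.0 and 253 CPM in Mono and at 804 and 499 CPM in Mono+MCTR3, so all 4 Mono mice lay below both Mono+MCTR3 mice, with Mono mouse 3 far below the rest. It was not called between the groups. Several other NK cell genes were near 0. Ncr1 was at 1 UMI, Gzmb at 1, and Klrb1c, Prf1, Klra8 and Eomes were at 0, while Klrk1, an activating receptor gene, was seen in 32 cells (155 CPM).

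The 17 cells with neither list were mixed. Of these, 9 held 2 or more UMIs of Apoe, a lipid carrier of macrophages and monocytes, and the set stood at 3983 CPM for Apoe and 18574 CPM for Lyz2. Fn1 (455 CPM), Chil3 (471), C5ar1 (228), Cd63 (366) and the lectin genes Clec4n (732) and Clec4d (309) were also among the genes that led the set. However, the macrophage genes Mertk, Folr2, Lyve1, Vsig4 and Pf4 were at 0 UMIs in all 62 cells. The Clec4n UMIs lay mostly in other mice than the Apoe UMIs, with Clec4n at 0, 0, 21.0 and 53.5 CPM in Mono and 647 and 429 CPM in Mono+MCTR3.

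Mature dendritic cell transcripts were concentrated in few cells. Only 8 of 62 cells (12.9%) met the mature list (Ccr7, Fscn1, Ccl22, Cacnb3, Il4i1, Socs2, Nudt17), and this list is met by 36.1% of T-cells and 48.5% of B-cells, which use some of its genes. A pair of cells in Mono mouse 4 held 57 and 28 of the 93 Ccr7 UMIs and 18 and 6 of the 28 UMIs of Fscn1, which encodes the actin bundler of mature dendritic cells. They also held 40 and 109 UMIs of the chemokine Ccl5, only 1 and 2 of Lyz2, and only 23 and 48 class II UMIs. The chemokine gene Ccl17 (chromosome 8, 94810453 to 94812036), which attracts Ccr4-bearing T-cells, was seen in 4 cells, all on the cDC2 list, with 179, 59, 12 and 2 UMIs, and none of these were the Ccr7-high pair.

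Transcripts of classical monocytes were common but low. The broad monocyte list (Ly6c2, Ccr2, F13a1, Fcgr1, Csf1r, Fn1, Ms4a4c, Cd14, Vcan) was met by 58 of 62 cells (93.5%), although 45.1% of T-cells and 93.5% of plasmacytoid dendritic cells met it too. Ccr2, the receptor that brings monocytes out of the bone marrow and that cDC2 also carry, was seen in 50 cells, and all 11 cDC1-list cells held it. A narrower list of Ly6c2, F13a1, Fcgr1 and Vcan, chosen after seeing the data, was met by 15 cells (24.2%), namely 1 of 11 cDC1-list cells, 6 of 32 cDC2-list cells, 1 of the 2 with both lists and 7 of 17 with neither, but also by 38.8% of T-cells. Of the 135 Ly6c2 UMIs, 101 came from the single cell of Mono mouse 4 described above, and Vcan was at 1 UMI. Lyz2 was seen in 60 cells with a median of 18 UMIs, from 0 to 501 per cell. By set its median was 19 in cDC1-list cells, 6.5 in cDC2-list cells and 102 in cells with neither list. These lists record which transcripts a cell held and do not give its origin.

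Against the 163 classical monocytes of the same joints (cells with at least 5 UMIs of Lyz2, 3 of Ly6c2 and F13a1, 1 of Csf1r, Ccr2 and Fn1, and under 15 of class II), class II-high cells were higher in genes of antigen loading and cDC2 lectins and lower in Chil3, Hp and Plac8. The fit covered the 4 mice with 5 or more cells of both kinds, with mouse as a block and edgeR's quasi-likelihood test. Of 1803 genes, 134 were higher (7.43%) and 123 lower (6.82%), and the median log2 fold change of all genes was -0.03. Genes that chose either population were not counted.

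Mgl2 was at 0 UMIs in the monocytes of all 4 mice and at 118 UMIs in the class II-high cells, which is at least 69.8-fold higher against a floor of 3 UMIs over the monocyte libraries. Cd74, the invariant chain that guides class II molecules, stood at 42912, 36799, 39087 and 34479 CPM in class II-high cells of Mono mice 3 and 4 and Mono+MCTR3 mice 1 and 2, and at 484, 735, 187 and 370 CPM in their monocytes. The 2 populations did not overlap in any mouse, and the log2 fold change was 6.69 (SE 0.29, adjusted p = 6.5e-08). The gates set the populations apart by class II itself, so genes that move with class II are not independent of them. Of 6 tested class II machinery genes 4 were higher, Cd74, H2-DMb1, H2-DMa and Ifi30 (list median 1.43). Cd209a had a log2 fold change of 3.80 (SE 0.22), at 883, 773, 1049 and 605 CPM against 56.1, 67.8, 73.3 and 58.6 CPM. Of 6 tested cDC2 genes 4 were higher (Mgl2, Cd209a, Tnfsf9 and Clec10a, list median 3.51), as were 3 of 4 genes of all cDC (Traf1, Flt3 and Id2, list median 2.11). Cxcl16, a membrane-bound chemokine, had 5.83 (SE 0.46), Bcl2a1d, a survival gene, 4.49, Pltp, a phospholipid carrier, 4.13, Traf1 4.12, the costimulatory ligand Tnfsf9 3.74 and Slamf7 3.73. The lectin-like receptor gene Klrb1b was at 77 UMIs in class II-high cells and 1 UMI in monocytes.

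The cDC1 genes Irf8, Naaa and Ppt1 were higher as well (3 of 3 tested, list median 1.21, each in 3 of 4 mice), but this rested on the cDC1-list cells for Irf8 and Naaa. Ppt1 also stood highest in the 11 cDC1-list cells (1153 CPM, against 66.5 CPM in the other 51), and no fit without them is given for it. Without the 13 cells that met the cDC1 list, an alternative chosen after seeing the data, Irf8 had a log2 fold change of -1.24 (edgeR adjusted p = 0.032) and Naaa -0.41 (adjusted p = 0.48). Id2 had 0.48 there and -0.39 with only the cDC2-list cells. Irf8 and Naaa also lost their calls without Mono mouse 4 (adjusted p = 0.18 and 0.073), without Mono+MCTR3 mouse 1 (0.058 and 0.066) and without Mono+MCTR3 mouse 2 (0.078 and 0.058). Ppt1 and Id2 lost theirs without Mono mouse 4 (0.079 and 0.16) and without Mono+MCTR3 mouse 1 (0.052 and 0.12).

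Among the genes lower in class II-high cells were Chil3, a chitinase-like protein of monocytes and macrophages, with a log2 fold change of -3.86 (SE 0.55), and Hp (haptoglobin) with -3.68. Complement C3 had -3.46, the glutathione transferase gene Mgst1 -3.44, Rasgrp2 -3.37, Cd177 -3.28 and Sqor -3.22. Pi16 and Mtus1 were at 2 UMIs each in class II-high cells, against 108 and 66 in monocytes. Of 8 tested classical monocyte genes 5 were lower, among them Chil3, Hp, Plac8 and Ms4a6c, and 0 were higher (list median -1.54). The monocytes were chosen by Lyz2, Ly6c2, F13a1, Csf1r, Ccr2 and Fn1, so genes that move with these are not independent of the gates. Ms4a6c lost its call with only the cDC2-list cells (log2 fold change -0.64, adjusted p = 0.17), and Rasgrp2 did too (-2.49, adjusted p = 0.075). Each gene named as lower lay below the monocytes in 4 of 4 mice. With library totals in place of trimmed-mean scaling the median of all genes moved from -0.03 to -0.21, and 92 genes were higher and 188 lower.

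**Figure D4:**
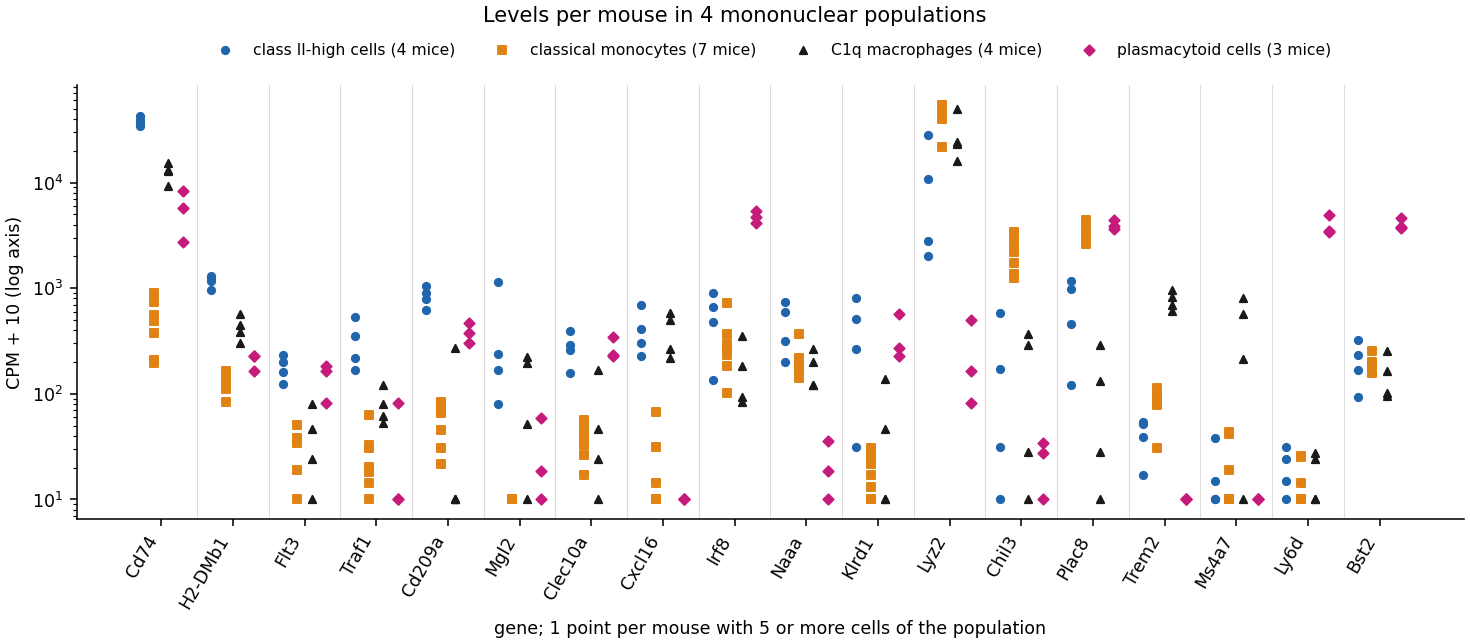
Level of 18 genes, as CPM + 10 on a log axis, with 1 point per mouse that held 5 or more cells of the population (class II-high cells 4 mice, classical monocytes 7, C1q macrophages 4, plasmacytoid cells 3). Class II-high cells lie above monocytes for Cd74, Cd209a and Flt3, above C1q macrophages for Cd74 and H2-DMb1, and far below plasmacytoid cells for Irf8, Ly6d and Bst2.

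Compared with 39 C1q macrophages, class II-high cells were higher in Mgl2, Irf8 and antigen-loading genes and lower in genes of resident and lipid-handling macrophages. With 3 mice in the fit, 51 of 890 genes were higher (5.73%) and 61 lower (6.85%) by edgeR's quasi-likelihood test (median of all genes -0.04). The split was 7 higher and 31 lower without Mono mouse 4, 15 and 41 without Mono mouse 3, and 169 and 113 without a filter on low counts. Pf4 was at 0 UMIs in class II-high cells and 145 in the macrophages, at least 104-fold lower against a floor of 3 UMIs over the class II-high libraries. Ms4a7 had a log2 fold change of -5.45 (SE 0.61), Trem2, a lipid receptor, -5.03 (SE 0.42), the matrix gene Ecm1 -4.28 and the protease gene Ctsl -4.04. Cxcl2, a neutrophil-attracting chemokine, had -3.70, with a mean of 406 CPM in class II-high cells and 7132 CPM in the macrophages. The protease inhibitor gene Timp2 also had -3.70, and Cd63 and C3ar1 had -3.69 each. Cd36 was at 3 UMIs against 61 in the macrophages. Of 8 tested macrophage genes 4 were lower, among them Pf4, Ms4a7 and Trem2, and 0 were higher, with a list median of -3.95. The macrophages were chosen by C1q, so genes that move with C1q are not independent of the gates. Only the class II-high cells were chosen by class II, so antigen-loading genes that move with it are not independent of the gates either.

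In the other direction, Plbd1 had a log2 fold change of 2.56 (SE 0.31), Gm2a, a lysosomal lipid activator, 2.53 (SE 0.29), Irf8 2.29 (SE 0.42), Traf1 2.24, Tmsb10 2.07, the aspartic protease gene Napsa 2.02, Syngr2 2.02, Ifi30, which reduces disulfide bonds before antigen loading, 1.75 and H2-DMb1, which loads class II with peptide, 1.74. Mgl2 had 2.57 (SE 0.62, adjusted p = 0.041). All lay on the stated side in 3 of 3 mice. Of 6 tested class II machinery genes 4 were higher and 2 lower, the lysosomal proteases Lgmn and Ctss. Of 6 tested cDC2 genes only Mgl2 was higher, and 5 were not called (list median 0.95). The Mgl2, Traf1, Napsa, Syngr2, Ifi30 and Cd74 calls were lost without Mono mouse 4 (adjusted p = 0.13, 0.16, 0.082, 0.065, 0.062 and 0.10), as were those of Timp2 (0.068) and Ctss (0.16). Napsa lost its call without Mono mouse 3 (0.083), Traf1 without Mono+MCTR3 mouse 2 (0.11), and Irf8 with up to 10% mitochondrial UMIs (0.13). Of the 336 Irf8 UMIs in the 62 cells, 265 lay in the 11 cDC1-list cells. No fit without these cells was made against macrophages.

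Plasmacytoid dendritic cells, the interferon-making relatives of cDC, were chosen by Siglech (46 cells), and only Mono+MCTR3 mice 1 and 2 held 5 or more of both kinds. In these 2 mice 164 of 1200 genes were higher in class II-high cells (13.7%) and 177 lower (14.8%) by edgeR's quasi-likelihood test (median of all genes 0.0033), and DESeq2 called 46 and 31. All 10 tested plasmacytoid genes were lower (list median -5.32), among them Ly6d (2 UMIs against 704), Cox6a2 (1 against 265), Klk1 (0 against 103), Ccr9 (1 against 75), Bst2 and Tcf4. Genes that move with Siglech, which set the populations apart, are not independent of the gates. D13Ertd608e was at 0 UMIs against 74, Atp1b1 at 1 against 94, Iglc3 at 2 against 135 and Lair1 at 2 against 80. DESeq2 did not call Klk1, Pacsin1, Runx2, Spib or D13Ertd608e (adjusted p = 0.40, 0.056, 0.13, 0.11 and 0.47). Of 8 tested classical monocyte genes 5 were higher (Cd14, Lyz2, Ms4a6c, Ms4a4c and Ccr2, list median 2.31) and 3 lower, among them Ly6c2 with a log2 fold change of -5.26 (SE 0.41). DESeq2 did not call Ms4a6c, Ms4a4c or Ccr2 (adjusted p = 0.151, 0.345 and 0.202). Irf8 was lower too, while the cDC1 genes Naaa and Ppt1 were higher, and the Ppt1 call was kept under only 5 of 11 alternatives (adjusted p up to 0.83). No fit without the cDC1-list cells was made against plasmacytoid cells.

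Class II-high cells were higher in S100a4 (log2 fold change 6.15, SE 0.41), which encodes a calcium-binding protein, in Ifitm1 (6.27, SE 0.47) and in 6 of 7 tested cytokine and receptor genes (Tgfbi, Osm, Il1b, Ifngr1, Csf2ra and Il1r2, list median 3.17). Of these 6, Il1b, Ifngr1, Csf2ra and Il1r2 were not called by DESeq2 (adjusted p = 0.070, 0.066, 0.43 and 0.87). Cxcl16, Cd83, Ckb and Cdkn1a were at 0 UMIs in the plasmacytoid cells and at 110, 77, 79 and 71 UMIs in class II-high cells, at least 30.7-fold, 21.5-fold, 22.1-fold and 19.8-fold higher against a floor of 3 UMIs over the plasmacytoid libraries. DESeq2 did not call Cxcl16, Cd83 or Cdkn1a (adjusted p = 0.43, 0.39 and 0.41). Anxa1, Lmna, Clec4n and Ccl9 were at 1 UMI each in plasmacytoid cells and at 146, 103, 90 and 85 in class II-high cells. Of 8 tested class II machinery genes 6 were higher (Cd74, H2-DMb2, H2-DMb1, Ifi30, Ctss and H2-DMa, list median 1.82) and 0 lower, but DESeq2 did not call H2-DMb2, Ctss or H2-DMa (adjusted p = 0.25, 0.073 and 0.71). The class II-high cells were chosen by class II and the plasmacytoid cells were not. Genes that move with class II are therefore not independent of the gates here either. Library totals in place of trimmed-mean scaling moved the median of all genes to -0.21 and gave 132 higher and 215 lower genes.

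Between the groups, class II-high cells of Mono+MCTR3 mice differed from those of Mono mice in 1 gene. Only Mono mice 3 and 4 and Mono+MCTR3 mice 1 and 2 held 5 or more cells, so the fit compares 2 mice with 2. Of 1300 genes tested, 0 were higher (0%) and 1 was lower in Mono+MCTR3 (0.0769%) by edgeR's quasi-likelihood test, with 85 at an unadjusted p under 0.05. DESeq2 called 1 higher and 2 lower.

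The gene was Ccl17, at 1494 and 870 CPM in Mono mice 3 and 4 and at 0 and 14.1 CPM in Mono+MCTR3 mice 1 and 2 (log2 fold change -6.68, SE 0.65, edgeR adjusted p = 0.019). It was also at 0 CPM in Mono mice 1 and 2, which held 3 and 4 cells and did not enter the fit. In all, 250 of its 252 UMIs came from 3 cells, 1 in Mono mouse 4 (179 UMIs) and 2 in Mono mouse 3 (59 and 12), so the call describes 3 cells. It was lost when every mouse with at least 1 such cell entered (log2 fold change -5.84, adjusted p = 0.50) and with up to 10% mitochondrial UMIs (-4.09, adjusted p = 0.39), and kept under 15 of 17 alternatives.

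The next genes by p did not pass. Lyz2 stood at 28187 and 10767 CPM in Mono mice 3 and 4 and at 2790 and 1998 CPM in Mono+MCTR3 mice 1 and 2 (log2 fold change -3.07, SE 0.45, edgeR adjusted p = 0.098). Of the Mono mice outside the fit, mouse 1 lay at 2509 CPM, within the range of Mono+MCTR3. Mono mouse 2 lay above both Mono+MCTR3 mice, with 164, 159, 71 and 8 Lyz2 UMIs in its 4 cells (29153 UMIs in all). Apoe, at 4985 and 1337 CPM in Mono and 0 and 295 CPM in Mono+MCTR3, had -4.03 (SE 0.91, adjusted p = 0.54), Ifi27l2a -1.68 and the lectin gene Clec4b1 -2.48. Clec4n stood at 21.0 and 53.5 CPM in Mono and 647 and 429 CPM in Mono+MCTR3 (log2 fold change 3.46, SE 0.51, adjusted p = 0.098), and 46 of its 102 UMIs lay in 1 cell. Values for S100a10 were 1.06 (SE 0.25), for Rgcc 2.39 (SE 0.61), for S100a4 0.87 (SE 0.23) and for Gpr183, a receptor for oxysterols that guides cDC2, 1.87 (SE 0.51), each with an edgeR adjusted p of 0.54. Other settings called some of these genes. Lyz2 stayed uncalled under 10 of 17 alternatives and Clec4n and Apoe under 11 of 17 each. Ifi27l2a and Clec4b1 stayed uncalled under 14 of 17 each, Rgcc under 11 of 13 and Gpr183 under 13 of 14. Some of these alternatives left a lone mouse in a group. Lyz2 and Clec4n passed with DESeq2 (adjusted p = 0.0043 and 0.0052), and Lyz2 passed without the cDC1-list cells (log2 fold change -3.40, adjusted p = 0.0047). Over 17 alternatives the adjusted p ranged up to 0.81 for Lyz2, whose log2 fold change lay between -3.59 and -1.71, and up to 0.11 for Clec4n.

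**Figure D5:**
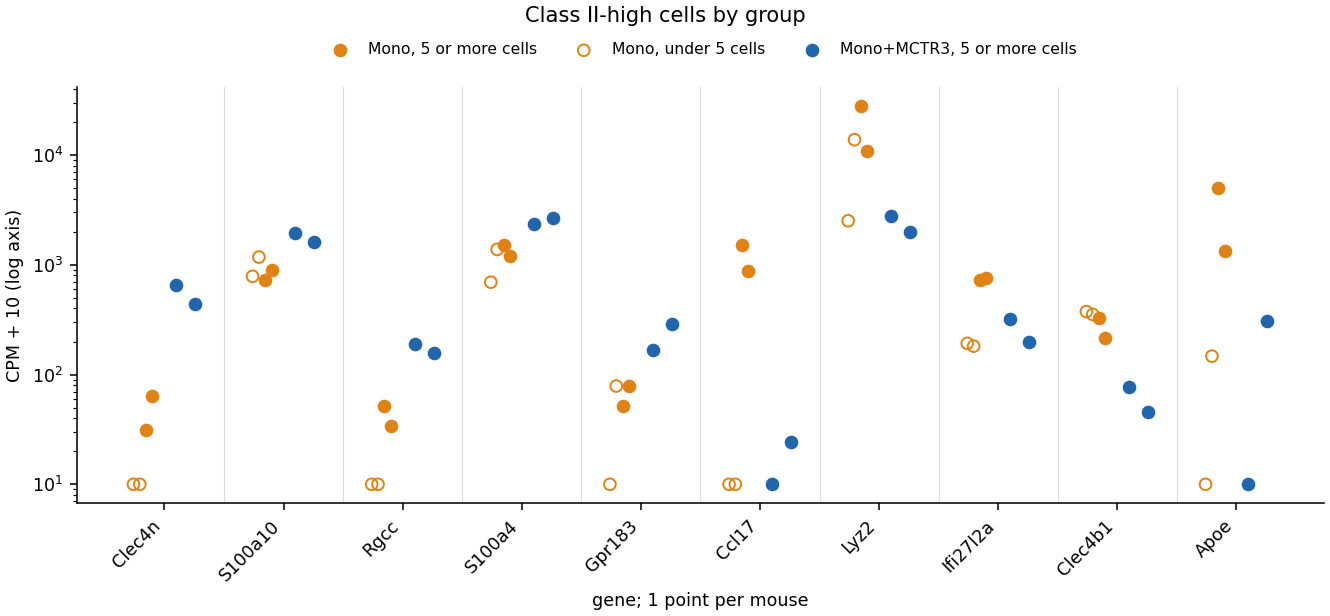
Level of the 5 genes with the lowest p in each direction in class II-high cells, as CPM + 10 on a log axis, with 1 point per mouse. Filled points are the 4 mice in the fit (5 or more cells), and open points are Mono mice 1 and 2, with 3 and 4 cells. Mono mice 1 and 2 lie at 0 CPM for Ccl17 and within the range of Mono+MCTR3 for Apoe.

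The makeup of the cells by list overlapped between the groups for the cDC1, cDC2 and monocyte lists but not for the mature list. In the 4 mice with 5 or more cells, cDC1 transcripts were held by 0% and 28% of cells in Mono mice 3 and 4 and by 16.7% and 18.8% in Mono+MCTR3 mice 1 and 2. For cDC2 transcripts the shares were 62.5% and 40% in Mono and 66.7% and 56.2% in Mono+MCTR3. Mature transcripts were held by 0% and 16% in Mono and by 16.7% and 18.8% in Mono+MCTR3, and monocyte transcripts by 100% and 88% against 100% and 93.8%. The exact permutation test gave p = 1, 0.667, 0.333 and 1 for the 4 lists (two-sided), or 1, 1, 0.743 and 1 after Benjamini-Hochberg adjustment over the 6 tests of shares. No smaller p than 0.333 is possible with 2 mice against 2, so this test could not show a difference for any list.

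Ccl17 was the only gene of the 24 lists to pass between the groups. Of 8 tested class II machinery genes 0 passed (list median -0.11, all genes 0.0056), with Cd74 at 42912 and 36799 CPM in Mono mice 3 and 4 and 39087 and 34479 CPM in Mono+MCTR3 mice 1 and 2, values that interleave. Of 7 tested cDC2 genes 0 passed (median -0.23), of 11 classical monocyte genes 0 (median -1.11), of 8 lectin and uptake receptor genes 0 (median -0.62) and of 8 cytokine genes 0 (median -0.12). Il1b, the interleukin-1β gene, was seen in 48 of the 62 cells, at 228, 2333, 862 and 1998 CPM in Mono mice and 3103 and 2533 CPM in Mono+MCTR3 mice. Arg1, Nos2, Il10 and Il23a were at 0 UMIs in the 62 cells.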

How the data were processed

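The deposited values are whole UMI counts of genes by barcodes, in a table for Mono and a table for Mono+MCTR3. The authors made them with Cell Ranger on GRCm38 (version not given in the sources used here) and joined the mice of each group separately, so any equalising of reads held within a group only. A barcode was kept with 250 to 3000 genes, 500 or more UMIs and no more than 5% mitochondrial UMIs. The population, the lists and the genes named were chosen with earlier results of these data known. Genes named are those of 24 lists with at least 20 UMIs, the 5 lowest p per direction between groups, and the 10 largest called changes per direction with at least 50 UMIs between populations. UMIs were summed per mouse (5 or more cells) and tested with edgeR 4.0.16 in R 4.3.3 (TMM, filterByExpr, glmQLFit, glmQLFTest, Benjamini-Hochberg adjusted p under 0.05), a step also tested on simulated data, with DESeq2 1.42.0 as an alternative. A standard error is the size of the log2 fold change divided by the root of F. Shares were compared by exact permutation over mice, with exact 95% binomial intervals. Python 3.11.15, Scanpy 1.11.5 and scipy 1.17.1 were used. Nothing says how the labelled mice relate to suffixes, and suffixes were taken as mice. Pairs of libraries shared 0 to 7 barcodes, and 1 barcode of the 62 cells occurred in another library. Results of a few genes that the rule would name are not reported here.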

Additional observations from a re-analysis of the deposited data

How the results depend on the processing

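No paired analysis was possible because mouse numbers are barcode suffixes and pair nothing between the groups. The difference in shares kept its direction and missed the threshold under 15 of 15 alternatives for both denominators. Leaving out 1 mouse gave -0.618 to -0.0763 percentage points of kept cells and -1.55 to -0.434 of cells outside the neutrophils. For the marker lists it gave -10.3 to 17.7 (cDC1), -1.04 to 21.5 (cDC2), 1.71 to 17.7 (mature) and -3.12 to 8.88 (monocyte). Turned directions were, without the Cst3 threshold, -0.128 (cDC1), -2.01 (cDC2) and -7.31 (monocyte), and for monocyte transcripts -0.944 with 10% mitochondrial UMIs, -14.5 after thinning and -14.2 with the narrow list. The count between groups was 3 with DESeq2, 19 without a filter, 10 with edgeR's likelihood ratio test, 2 without cDC1-list cells, 0 with 10% mitochondrial UMIs, 0 with every mouse, and 5 to 41 with 1 mouse left out. The lone mouse is then assumed to vary like the others. Against monocytes the count was 167 with DESeq2, 504 without a filter, 131 with only cDC2-list cells and 150 to 304 with 1 mouse left out. Against macrophages it was 282 without a filter and 38 to 98, and against plasmacytoid cells 77 with DESeq2, where a left-out mouse leaves no test. Irf8 turned to -1.24 without cDC1-list cells and -1.11 with only cDC2-list cells, Naaa to -0.41 and -0.27, and Id2 to -0.39 with only cDC2-list cells, where the alternative itself removes the cells that held them. For the other changes the cause was not tested. Counts rest on 62 cells, so genes at few UMIs were not testable.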

Other observations

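Stress and activation genes also differed between class II-high cells and classical monocytes of the same mice. Of 8 tested heat shock genes 5 were higher by edgeR's quasi-likelihood test and 0 lower (Hspa1a, Dnajb1, Hspa1b, Hspe1 and Hspa8, list median 0.96), and of 14 immediate early genes 5 were higher (Egr1, Btg2, Dusp1, Zfp36 and Jund, list median 0.66, all genes -0.03). Btg2 and Egr1 kept their calls under all alternatives run, and each of the other 8 genes lost its call under 1 to 10 of them. Hspa1a stood at 3239, 5351, 1557 and 2494 CPM in class II-high cells of Mono mice 1 to 4 and at 4375 and 788 CPM in Mono+MCTR3 mice 1 and 2, so it varied widely within both groups. Cell division genes were sparse. Birc5, Ccnb1, Ccnb2, Ccna2, Rrm2 and Cenpf were at 0 UMIs in the 62 cells.

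Among interferon-stimulated genes, Irf7 stood at 338 CPM in cDC1-list cells and 47.0 CPM in cDC2-list cells, and Ifi47 at 147 and 42.7 CPM. This was not tested, since the sets were formed from the same cells and Ifi205, an interferon-inducible gene, is on the cDC1 list.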
